A study of Arabidopsis thaliana with 6 samples.

Results

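LBD37, LBD38 and LBD39 are 3 genes of Arabidopsis thaliana that encode transcription factors with a LATERAL ORGAN BOUNDARIES (LOB) domain. They were taken as the loci AT5G67420 (LBD37), AT3G49940 (LBD38) and AT4G37540 (LBD39), and were represented by every gene probe whose transcript accession belongs to one of these loci. That rule found 4 probes on 5 spots, out of 43603 gene probes on 61657 gene spots of the array, and 3 genes of 25383. LBD37 had 2 probes, one of them printed on 2 spots, and LBD38 and LBD39 had 1 probe each.

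The plants were wild-type (no ecotype was given in the sources used here), and RNA came from whole rosettes harvested at 4 weeks. The ambient group grew in ambient air whose NO content was not given, and the NO group grew in ambient air to which 3 ppm nitric oxide was added around the clock. Both groups shared a potting mix of soil and sand, days of 20 °C and nights of 16 °C, and each had 3 one-colour Agilent arrays, which the series describes as 3 independent biological experiments. The series title names NO as a possible nitrogen source, so the question addressed here is how genes known to respond to nitrogen supply differed between the 2 atmospheres.

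LOB-domain proteins are plant-specific transcription factors, and LBD37, LBD38 and LBD39 belong to the smaller class II of the family. In Arabidopsis, transcripts of all members of this trio are known to rise when nitrate or other nitrogen sources are supplied. Overexpression of any of them is known to lower transcripts of the anthocyanin regulators PAP1 and PAP2 and of several genes of nitrate uptake and reduction, which is why they are described as repressors.

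No gene spot was saturated, and 65.2% to 66.8% of gene spots were well above background on the ambient arrays against 68.5% to 72.0% on the NO arrays. The 3 ambient arrays lay on 1 slide and were scanned together and the 3 NO arrays lay on another, so an effect of the slide or the scan cannot be told apart from that of NO in the values below. Of 10 probes for spike-in control transcripts, 7 were brighter on every NO array than on every ambient array, by 3.33 to 5.63 on the log2 scale. These 7 were well above background on 4 to 6 arrays. The remaining probes, with changes of -0.35, 0.07 and 0.45, were well above background on only 0, 0 and 1 of the 6 arrays. The leaf markers, the genes of the Rubisco small subunit and Rubisco activase, were well above background on all 6 arrays in 5 of 5 cases, 4 of 4 seed storage markers were not well above background in all spots of any array, and 4 of 7 root markers were likewise undetected. Summed signals, in units of the 75th percentile of each array, ran from 776 to 836 in ambient air and from 1399 to 1781 in NO for the leaf markers, and from 0.0623 to 0.0846 and from 0.0820 to 0.140 for the root markers. They ran from 16.4 to 17.2 and from 16.9 to 17.1 for 6 vascular markers, from 5.45 to 5.60 and from 4.01 to 4.17 for 4 guard cell markers, and from 0.598 to 0.714 and from 0.713 to 0.777 for 5 flower markers. A sum mostly follows its brightest gene. For the vascular markers that was the phloem gene SUC2, at 3.55 on the log2 scale in ambient air against 1.09 for APL. Vascular markers changed in both directions, as given below. In whole rosettes a shift in the share of a cell type and a shift in RNA per cell cannot be told apart, and the part of these markers in the results was not tested.

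All 3 genes were higher in rosettes grown in 3 ppm NO. LBD37 was 7.77-fold higher, LBD38 was 4.77-fold higher and LBD39 was 1.91-fold higher, each with the 3 NO arrays above the 3 ambient arrays. Of 18614 genes tested, 58.2% passed an adjusted p of 0.05 in limma, 25.8% passed with higher signal in NO, and in 29.0% the NO arrays all lay above the ambient arrays, so passing or separation alone does not set a gene apart here. A rise of at least 4-fold that passed was found in 0.886% of genes, and one of at least 2-fold in 4.98%. LBD37 lay in the former set and LBD39 in neither. LBD38 was above 4-fold, but its ambient signal was close to background, it met the detection rule only through the NO arrays, and with a different background correction its log2 change was 1.62 or 0.97, so its place in that set depends on the processing.

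The values below give the processed signal of a probe as a percentage of the 75th percentile of its array, and changes as NO minus ambient on the log2 scale with the SE from limma. A percentage describes 1 probe across arrays, and the levels of different probes cannot be set against each other.

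LBD37 rose most. Its brighter probe, A_84_P229909, read 10.9%, 10.8% and 12.4% in ambient replicates 1, 2 and 3, and 87.4%, 88.9% and 88.9% in NO replicates 1, 2 and 3. The NO arrays lay within a narrow band and far above the ambient ones, and every array was well above background. The group values were 11.4% ± 0.869 and 88.4% ± 0.881 (SD, n = 3 each). The change was 2.96 ± 0.06 on the log2 scale, with a 95% interval of 2.80 to 3.11 and an adjusted p of 9.39e-07 in limma, and it ranked 52 among the rises of all 18614 genes.

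The second LBD37 probe, A_84_P818463, gave a change of nearly the same size from much dimmer spots. Averaged over its 2 spots it read 2.58%, 2.59% and 3.43% in ambient air and 23.1%, 22.2% and 23.6% in NO. The groups did not overlap, but both spots were well above background on only 1 of the 3 ambient arrays. Its change was 3.02 ± 0.12, with an adjusted p of 9.28e-06 when each of 29702 probes was fitted on its own in limma. In that fit 53.0% of the probes passed.

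The paired spots of this probe show how far 1 spot can stray at such low signal. In ambient replicate 3 they read 2.83% and 4.16% of the 75th percentile, whereas on the other ambient arrays the spots read between 2.38% and 2.79%. On the NO arrays the spots read between 20.4% and 24.8%. The gap between groups on the log2 scale, from the highest ambient to the lowest NO array, was 2.70 for this probe and 2.82 for the brighter one.

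LBD38 was near the background in ambient air. Its probe read 2.52%, 4.33% and 3.60% in ambient air and 16.9%, 15.3% and 16.5% in NO, in the order of replicates 1, 2 and 3. The ambient arrays differed among themselves by more than the NO arrays, with SDs of 0.40 and 0.08 on the log2 scale, and the groups stayed apart by 1.82. Ambient replicate 1 was the lowest and was not well above background, while the other 5 arrays were.

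In processed signal the ambient spots of LBD38 stood at 22.1, 36.2 and 29.9, where the lowest gene spot well above background read 21.2, 18.2 and 16.1 on the same arrays. The NO spots stood at 121, 201 and 139. The change was 2.25 ± 0.19, with a 95% interval of 1.81 to 2.70, an adjusted p of 0.000114 in limma and rank 119 among the rises. The size of this change depended on how the background was treated. It was 0.97 with normexp background correction and an offset of 50, which adds 50 to every signal, and 1.62 with normexp and no offset, and it passed under both.

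LBD39 rose least. Its probe read 5.07%, 5.26% and 6.66% in ambient air and 12.0%, 10.3% and 9.97% in NO. All 6 arrays were well above background and the groups did not overlap, but the highest ambient and the lowest NO array lay only 0.58 apart on the log2 scale. The group means were 5.67% and 10.8%, with SDs of 0.21 and 0.14 on the log2 scale (n = 3 each).

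The change of LBD39 was 0.93 ± 0.12, with a 95% interval of 0.64 to 1.23, an adjusted p of 0.000853 in limma and rank 1050 among the rises. With normexp and an offset of 50 it was 0.43, and it still passed (adjusted p = 0.0129). With normexp and no offset it was 0.75. Leaving out ambient replicate 3, its highest ambient array, raised the change to 1.06, and leaving out NO replicate 1, its highest NO array, lowered it to 0.85.

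**Figure D1:**
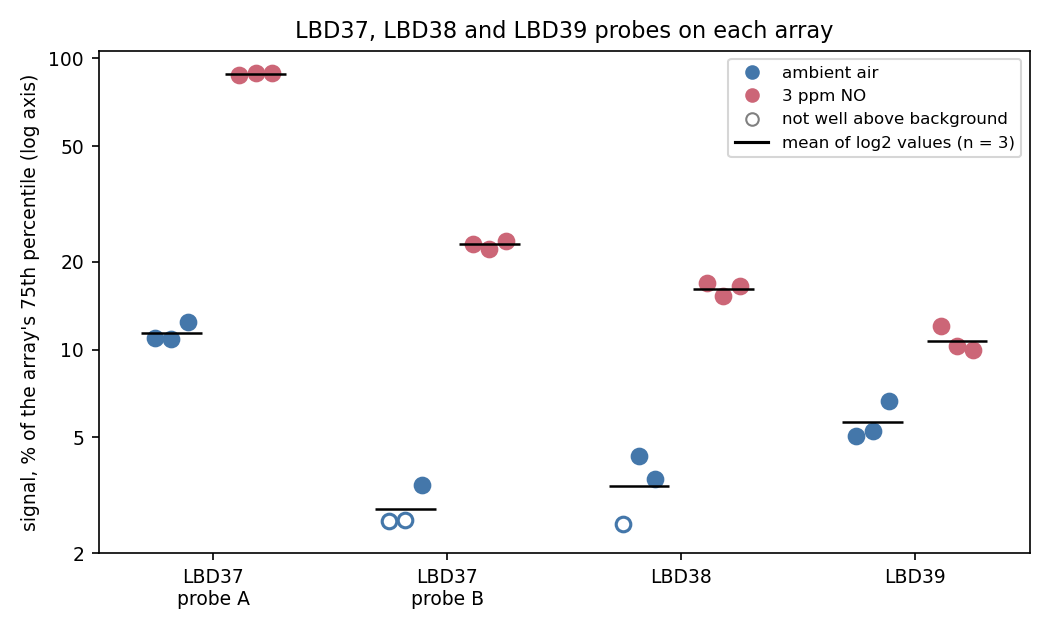
Signal of each LBD probe on each of the 6 arrays, as a percentage of the 75th percentile of the array on a log axis; probe A of LBD37 is A_84_P229909, probe B is A_84_P818463, points are arrays in the order of replicates 1 to 3, open points were not well above background in all spots, and lines are means of the log2 values. In all 4 probes the 3 NO arrays lie above the 3 ambient arrays, from 87.4% to 88.9% against 10.8% to 12.4% for LBD37 probe A, and from 9.97% to 12.0% against 5.07% to 6.66% for LBD39.

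**Figure D2:**
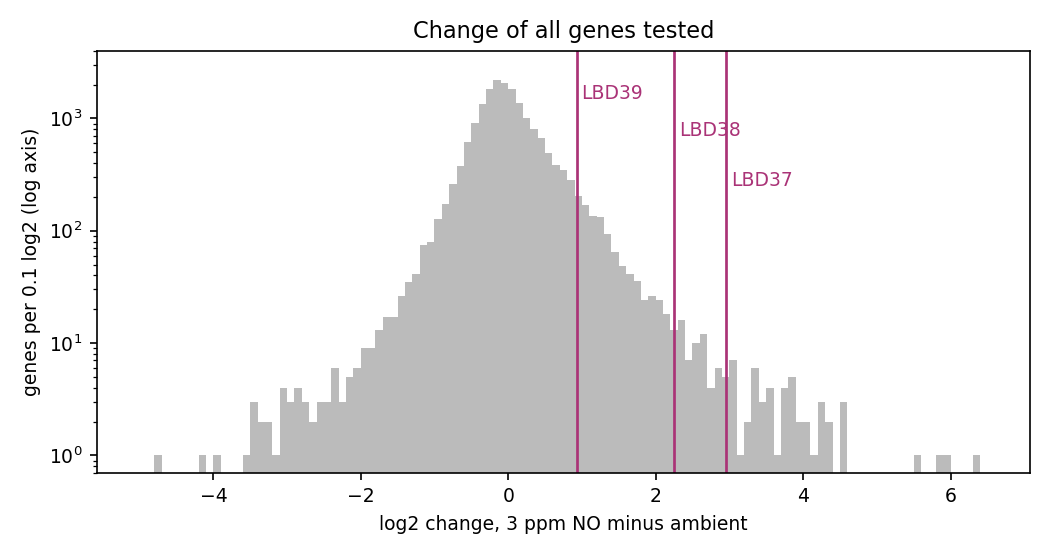
Distribution of the log2 change (NO minus ambient) over the 18614 genes tested, in steps of 0.1 with the number of genes on a log axis, and lines at the members. LBD37 at 2.96 and LBD38 at 2.25 lie in the thin upper tail, and LBD39 at 0.93 lies at rank 1050 of the rises.

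The sizes of the 3 rises were then compared within the arrays. The change of LBD37 exceeded that of LBD39 by 2.02 ± 0.11 on the log2 scale (95% interval 1.72 to 2.33 from the spread between arrays), which is a 4.07-fold ratio of folds. LBD38 exceeded LBD39 by 1.32 ± 0.24 (0.67 to 1.97), and LBD37 exceeded LBD38 by 0.71 ± 0.23 (0.05 to 1.36). For each of these 3 pairs the difference between the genes was larger on all 3 NO arrays than on all 3 ambient arrays. Each had a p of 0.1 in a two-sided exact permutation test, also after Benjamini-Hochberg adjustment over the 3 pairs, and 0.1 is the smallest p that 3 arrays against 3 can give.

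Background treatment decided where LBD38 stood between the other two. With normexp and an offset of 50, the difference between LBD37 and LBD38 was 1.38 in place of 0.71 and that between LBD38 and LBD39 was 0.54 in place of 1.32, while LBD37 exceeded LBD39 by 1.92. The order LBD37, LBD38, LBD39 was also found with quantile and cyclic loess normalization, with the mean of all probes of a gene, with the second LBD37 probe and with normexp without an offset.

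Of the wider LBD family, 40 loci carry an LBD number in the gene table used for names, 39 had a probe and 14 were tested. The other 25 genes with a probe did not reach the detection rule, and 22 of them were well above background in all spots on no array. Of the 14, LBD38 and LBD19 met the rule only through the NO arrays, so the counts of rises include genes that had to be higher in NO to be tested. With that limit there were 8 rises and 1 fall, against 25.8% and 32.4% of all genes tested, and the median change was 0.61 against -0.05. The 5 others, LBD11, LBD21, LBD25, LBD3 and LBD20, had changes of 0.32, 0.15, 0.09, -0.02 and -0.16 that did not pass, and the sign for LBD3 turned in 2 alternatives. LBD11 passed in 3 of 19 alternatives and LBD21 in 1. Without the trio the remaining 11 split into 5 rises, 1 fall and 5 that did not pass, with a median of 0.25. Their share of calls was 54.5%, near the 58.2% of all genes. In 6 of these 11 the groups did not overlap in either direction, where 66.7% of all genes tested had no overlap.

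Among class II members outside the trio, only LBD41 was tested. LBD41, known as a hypoxia-responsive gene in Arabidopsis, rose by 1.07 ± 0.06 on the log2 scale (adjusted p = 2.23e-05 in limma). LBD40 and LBD42 were not well above background on any array.

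Outside class II the changes went both ways. LBD1, whose relative in poplar is known from secondary growth of the stem, was 4.22-fold lower (change -2.08 ± 0.10, adjusted p = 1.34e-05 in limma), or -1.28 with normexp and an offset of 50. LBD30, known as a regulator of xylem vessel differentiation, was 2.37-fold higher (1.25 ± 0.25), and LBD15 was 1.94-fold higher (0.96 ± 0.19). With normexp and an offset of 50 their changes were 0.53 and 0.44, and both still passed. Of the vascular markers named above, the xylem genes IRX3 and XCP1 rose by 1.00 and 0.75 on the log2 scale. The phloem genes APL and SUC2 had changes of -0.32 and -0.17. ATHB8 had a change of 0.22 that did not pass (adjusted p = 0.0571 in limma), and VND7 did not reach the detection rule. The part of vascular cells in the LBD values was not tested.

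LBD19 was 1.87-fold higher and was well above background on 1 of the 3 ambient arrays. It did not pass with normexp and an offset of 50, where its change was 0.15 (adjusted p = 0.374). LBD4, known as a regulator in vascular tissue, had a change of 0.25 (adjusted p = 0.0165) and did not pass in 5 of 19 alternatives, among them scaling to the median (adjusted p = 0.0669) and the fits without ambient replicate 3 (0.0522), NO replicate 2 (0.0527) and NO replicate 3 (0.0525).

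**Figure D3:**
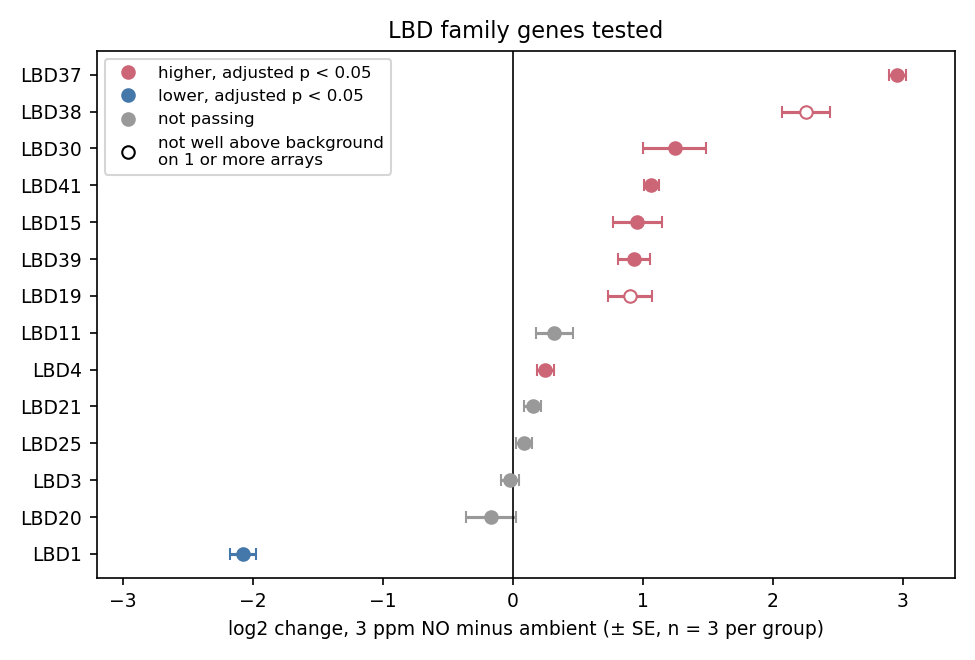
Log2 change (NO minus ambient) with its SE from limma for the 14 LBD family genes tested (n = 3 arrays per group); colours mark calls at an adjusted p of 0.05, and open points mark genes not well above background on 1 or more arrays. LBD37 and LBD38 have the 2 largest changes in these values, and LBD1 at -2.08 is the 1 gene called lower. With normexp and an offset of 50, LBD38 was at 0.97 and LBD1 at -1.28.

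Genes of anthocyanin synthesis and of nitrate uptake, reduction and signalling were then read on the same arrays. The lists cover pathways and are not sets of genes established as repressed by the trio. They were chosen with earlier results of these data known, so the shares given beside them are a description. Of 8 regulators of anthocyanin synthesis 7 were tested, and 1 rose, 3 fell and 3 did not pass. Their share of calls was 57.1%, near the 58.2% of all genes tested, of which 25.8% rose and 32.4% fell. PAP1 and PAP2, MYB activators of anthocyanin genes and known to be lowered by LBD overexpression, were 3.09-fold and 2.92-fold lower, with changes of -1.63 ± 0.05 and -1.54 ± 0.10. TT8, their bHLH partner, was lower by -3.08. MYB113, a MYB gene related to PAP1 and PAP2, went the other way and was 6.45-fold higher (2.69 ± 0.12, or 1.63 with normexp and an offset of 50). MYB113 is a close paralog of PAP1 and PAP2, and cross-hybridisation between their probes was not tested.

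All 10 listed enzymes of anthocyanin synthesis and transport were tested and all fell, with a median change of -2.76 and a range of -3.50 to -1.62. Of all genes tested, 32.4% fell. The list was chosen with earlier results of these data known, so this contrast is a description and not a test. The 4 with the smallest adjusted p were TT7, DFR, LDOX and 5MAT, which encode a flavonoid hydroxylase, a reductase, a dioxygenase and an acyltransferase of the pathway. Their changes were -3.40, -3.09, -3.50 and -2.85.

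Genes of nitrate uptake and reduction, several of which are known to be lowered by LBD overexpression, mostly rose beside the trio. Of 9 listed genes 7 were tested, and 6 rose, 1 fell and 0 did not pass, with a median change of 1.32. Of all genes tested, 25.8% rose and 32.4% fell. Among the rises, those of NRT1.1 and NRT3.1, named after their values were seen, were small, at 0.25 ± 0.06 and 0.30 ± 0.08. One of the rises, that of the nitrate transporter gene NRT2.1, named here after its values were seen, rests on a probe that was well above background on 1 of 3 ambient arrays and met the detection rule only through the NO arrays. With scaling to the median 4 genes rose. With all 6 arrays required to be well above background 4 genes also rose, but NIA1 and NRT2.1 did not meet that filter and were not tested. The nitrate reductase genes NIA2 and NIA1 rose by 1.64 ± 0.07 and 1.60 ± 0.06, although NIA1 was fitted on 2 of the 3 NO arrays because 1 spot was marked as an outlier. NIR1, the nitrite reductase gene, rose by 1.32 ± 0.07. NRT2.5, which encodes a nitrate transporter and is known to be induced by nitrogen starvation, fell by 1.47 ± 0.07.

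Regulators and signalling genes of the nitrate response gave a mixed picture. Of 15 listed genes 12 were tested, and 6 rose, 2 fell and 4 did not pass, with a median change of 0.20. Their share of calls was 66.7% against 58.2% of all genes tested, and with scaling to the median 4 rose and 3 fell. The largest rises were those of HHO2 and HHO3, GARP-type repressors known to be induced by nitrate, at 4.93-fold and 4.03-fold (2.30 ± 0.09 and 2.01 ± 0.09). NLP7, which encodes a nitrate sensor and activator of nitrate-responsive genes, rose 1.84-fold (0.88 ± 0.05), and BT1, a gene for a BTB and TAZ domain protein, rose 1.55-fold (0.63 ± 0.05). The falls, named after their values were seen, were those of TCP20 and ANR1, at -0.49 and -0.35. HRS1 and HHO1, close relatives of HHO2 and HHO3, were not well above background on any array.

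**Figure D4:**
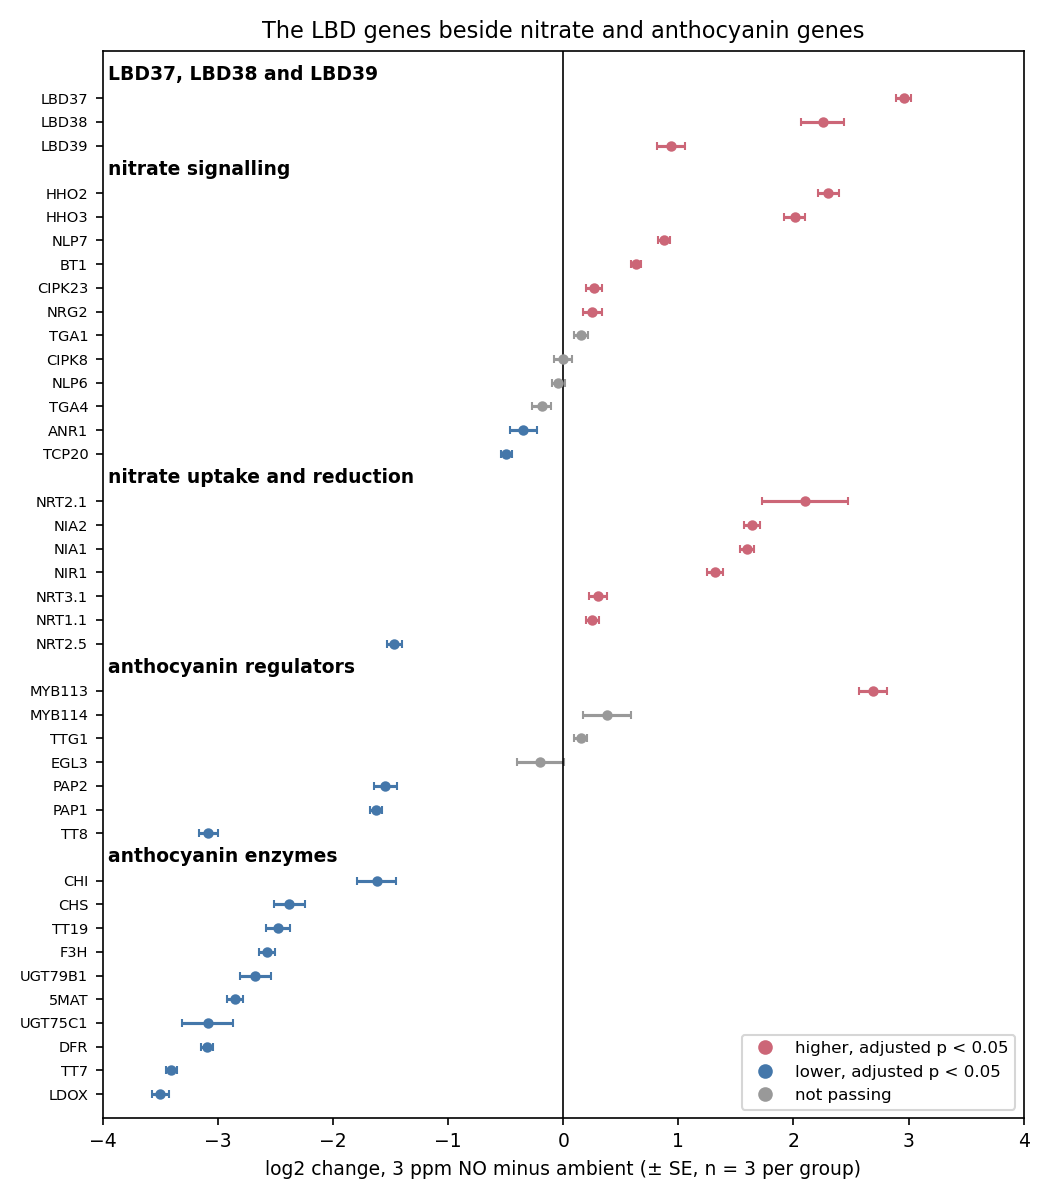
Log2 change (NO minus ambient) with its SE from limma for the 3 LBD genes and for the tested genes of 4 lists (n = 3 arrays per group; NIA1 has 2 NO arrays), coloured by call at an adjusted p of 0.05. The 3 LBD genes, HHO2, HHO3, NIA1, NIA2 and NIR1 lie above 0, and all 10 anthocyanin enzymes lie between -3.50 and -1.62. Among the anthocyanin regulators MYB113 lies at 2.69, and PAP1, PAP2 and TT8 lie below 0. In the nitrate lists NRT2.5 at -1.47, TCP20 at -0.49 and ANR1 at -0.35 passed below 0.

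The genes whose pattern over the 6 arrays lay closest to each LBD gene were found by centring every gene on its own mean and taking the root mean square distance on the log2 scale, over 18601 other genes with values on all arrays. These distances are a description of 6 arrays that fall into 2 groups. For LBD37 the 5 nearest genes with a symbol were the lipoxygenase gene LOX2 (distance 0.0565), the antenna gene LHCB2.3 (0.065), the chlorophyll synthesis gene PORB (0.0828), the methionine sulfoxide reductase gene MSRB6 (0.105) and the plastid gene-expression factor PTAC16 (0.111). Their changes lay between 2.88 and 3.15.

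Of genes with a symbol, for LBD38 the nearest was the annexin gene ANNAT4 at 0.0918, followed by the beta-glucosidase gene BGLU28 (0.175), the thylakoid lumen gene TL29 (0.184), the aldolase gene FBA5 (0.188) and the sulfolipid synthesis gene SQD1 (0.188). For LBD39 the nearest with a symbol were the chorismate mutase gene CM3 (0.054), the replication gene MCM5 (0.0817), the aspartate kinase gene CARAB-AK-LYS (0.0919), SUFE2 (0.0935), a gene of iron-sulfur cluster assembly, and BBX16 (0.0986), a B-box gene. None of the 3 LBD genes was among the nearest of another. LBD38 ranked 88 in distance from LBD37, at 0.424, and LBD39 ranked 1005, at 1.02. The values were centred but not scaled, so this distance follows the size of the change. Genes with changes as unlike as 2.96, 2.25 and 0.93 must lie apart by it. The ranks therefore cannot show whether the trio share a pattern. The distances of LBD38 also rest on its ambient values near background.

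**Figure D5:**
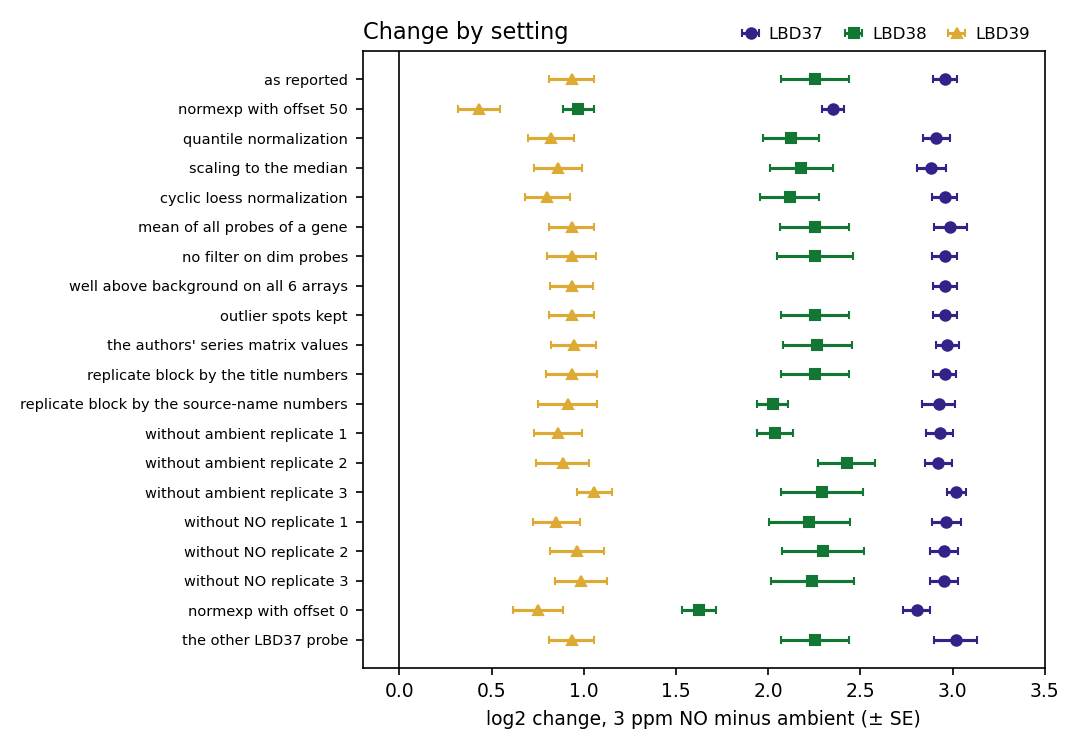
Log2 change (NO minus ambient) with its SE for LBD37, LBD38 and LBD39 as reported (top) and under each of 19 alternatives; LBD38 has no value where a probe had to be well above background on all 6 arrays. LBD37 stays between 2.35 and 3.02, whereas normexp with an offset of 50 moves LBD38 to 0.97 and LBD39 to 0.43.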

How the data were processed

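The deposited scanner files hold spot intensity on a linear scale. Per the file headers it was background-corrected by Agilent Feature Extraction 10.7.3.1, whereas the submitters' processing notes name version 10.5. The authors' deposited series matrix holds log2 values. Set against the scanner files they ran the same way and tracked log2 signals taken relative to the median of a probe over the arrays (Pearson r across probes 0.99991 to 0.99996, column medians -0.07 to 0.04), but how arrays were scaled is not stated, and they served as an alternative.

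For the main values, processed signals were divided by the 75th percentile of their array (716 to 1320) and log2-transformed, without control and outlier spots, with spots of a probe averaged. Probes were named through transcript accessions in a RefSeq gene table for TAIR10.1; 34285 of 43603 matched 1 locus. No coordinate is given, since the headers name an older build. A gene was its probe of highest mean signal, tested where all spots were well above background on all 3 arrays of a group, in limma 3.58.1 (R 4.3.3; lmFit, then eBayes; two-sided), with Benjamini-Hochberg adjustment over all genes tested, at a threshold of 0.05. The fit was tested on simulated data. The number of arrays limits precision.

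Genes named were the members, LBD40, LBD41, LBD42, the other LBD genes past the threshold with the largest changes, 4 genes of smallest adjusted p in each nitrate and anthocyanin list, per member the 5 nearest patterns among genes with a symbol (nearer genes without one were passed over), and the markers. Members and lists were chosen with earlier results of these data known. Titles number both groups 1 to 3 and are used here, but source names number the NO arrays 2 to 4. The labels state 3 independent experiments and no block in the analysis, so no block entered the main fit. Deviations of same-numbered arrays from their group means correlated at -0.0795, -0.0395 and 0.0453 by title. By source name the correlations were 0.0198 and -0.1184. Alternatives were normexp, quantile, median and cyclic loess scaling, probe means, 2 other filters, outlier spots kept, the authors' matrix, both replicate blocks and leaving out each array. Normexp used the median spot and background signals.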

Additional observations from a re-analysis of the deposited data

How the results depend on the processing

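LBD37, LBD38 and LBD39 kept their direction and passed in every alternative that gave them a value: 19 for LBD37 (change 2.35 to 3.02, adjusted p at most 0.00140 in limma), 18 for LBD38 (0.97 to 2.43, at most 0.00174) and 19 for LBD39 (0.43 to 1.06, at most 0.0189). With all 6 arrays required to be well above background, LBD38 was not tested. Leaving out 1 array at a time gave 2.92 to 3.02, 2.04 to 2.43 and 0.85 to 1.06, with 8 or 9 LBD family genes and 9481 to 9754 of all genes passing in place of 9 and 10839. The replicate block by title numbers gave adjusted p of 0.000172, 0.00149 and 0.00634 for the trio and 10 family genes, and the replicate block by source-name numbers, in which only 2 pairs share a number, lowered the count of all genes to 7141 with adjusted p of 0.00140, 0.00174 and 0.0189; neither ended a call of the trio. Among the lists, anthocyanin regulators with a rise went from 1 to 2 in 7 alternatives, and nitrate signalling genes with a fall from 2 to 1 in 5 and to 3 with scaling to the median. Nitrate uptake and reduction genes with a rise went from 6 to 4 with scaling to the median, the filter on all 6 arrays and the source-name block, and nitrate signalling genes with a rise from 6 to 4 with scaling to the median and the source-name block. Under the filter on all 6 arrays, NIA1 and NRT2.1 were not tested. Normexp with no offset and the second LBD37 probe were added after seeing the data. Signal over background limits the fold of LBD38, whose ambient spots lay near the dimmest spots called well above background.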

Other observations

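The protein-coding genes next to each LBD gene in the annotation were read as well, a choice made after the values of the trio were seen. Beside LBD38, AT3G49930 was higher in NO by 1.23 ± 0.12 on the log2 scale (adjusted p = 0.000225 in limma, all 3 NO arrays above all 3 ambient arrays), and AT3G49950 was not well above background on any array. Beside LBD39, AT4G37530 had a change of 0.25 ± 0.07 (adjusted p = 0.0241, NO arrays likewise all above the ambient ones) and AT4G37550 of 0.02 ± 0.06 (adjusted p = 0.796). Such results were common: 25.8% of all genes tested passed with higher signal in NO, and in 29.0% the NO arrays all lay above the ambient arrays. Both neighbours of LBD37, AT5G67411 and AT5G67430, were not well above background on any array.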
